A study of Homo sapiens with 4 samples.

Results

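The aldehyde dehydrogenases described here are 10 genes, ALDH1A1, ALDH1A2, ALDH1A3, ALDH1B1, ALDH2, ALDH3A1, ALDH3A2, ALDH3B1, ALDH7A1 and ALDH9A1, out of 43310 gene names on the array. They were chosen by gene name, and every probe carrying one of these names was taken, 18 in all. Of the 10 genes, 8 were well above background on all 4 arrays by the mark that the scanner software sets. ALDH1A1 was well above background on both A549 arrays, and ALDH1A2 on none. RNA came from 2 established human cancer cell lines, HCT116 (colorectal) and A549 (lung), each transfected with the microRNA miR-891b or with the negative control NC1 by means of Dharmafect1. Each of the 4 combinations of line and transfection had 1 array. RNA was measured in bulk, so fewer cells of a type and less RNA per cell cannot be told apart. The time after transfection is not given in the sources used here. The culture protocol names McCoy's 5A and DMEM as the media of the lines, so the medium may differ between them.

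Aldehyde dehydrogenases oxidise aldehydes to carboxylic acids with NAD+ or NADP+ as the acceptor, and so clear reactive aldehydes from alcohol, membrane lipids and amino acid breakdown. The ALDH1A enzymes turn retinaldehyde into retinoic acid, the ligand of the nuclear retinoic acid receptors. High ALDH1A1 or ALDH1A3 activity is widely used as a marker of progenitor-like cells in carcinomas, and A549 is known for high aldehyde dehydrogenase levels.

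The transfected microRNA acts through its seed, bases 2 to 8, shown in capitals because probes of the members were searched for its complement. The mature sequence is that of RefSeq (GRCh38.p14, chrX:146001100-146001121, minus strand).
hsa-miR-891b: uGCAACUUaccugagucauuga
The site that pairs with this seed (AAGTTGC) was in 0 of the 18 member probes, which cover 60 bases of a transcript each. The rest of these transcripts was not searched.

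The probes below read the genes on which most of the results turn, as given in the scanner files, 5′ to 3′ on the transcript strand. Each has at least 1 reading frame without a stop codon. Positions are on hg19.
ALDH1A1 probe a, chr9:75516136-75516195, minus strand: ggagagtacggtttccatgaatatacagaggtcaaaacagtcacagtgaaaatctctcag
ALDH3A1 probe b, chr17:19643743-19644417, minus strand: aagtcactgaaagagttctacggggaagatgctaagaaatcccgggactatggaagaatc
ALDH3A2 probe a, chr17:19575195-19575254, plus strand: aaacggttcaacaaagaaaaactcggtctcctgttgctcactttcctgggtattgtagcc
ALDH3B1 probe c, chr11:67793516-67793575, plus strand: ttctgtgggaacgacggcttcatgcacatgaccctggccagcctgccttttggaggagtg
The ALDH3A1 probe covers 675 bases of the genome with its 60 bases, so it lies across an exon junction.

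Levels are log2 processed signals minus the 75th percentile of the array, so 0 is the signal at that percentile. A difference of 1 is 2-fold. Levels of different probes depend on the probe and are not compared. On each array 44.7% to 50.3% of gene probes were well above background, and no gene probe was saturated. Each member probe was printed once. For such a spot the scanner software's error model gave an error of about 0.20 (0.204 for ALDH2 in HCT116) on a log2 difference between bright spots. This error covers the scan and not the cultures or the labelling, and the number of arrays limits every value here. Of the genes listed as markers of the lines, 4 of 5 A549 markers were higher in A549 and 4 of 6 HCT116 markers were higher in HCT116 by the limma test below, while SFTA1P and LGALS4 went against their list. Over all genes tested, 15.5% were called higher in A549 and 16.4% higher in HCT116. The markers were chosen with earlier results of these data known, so these counts are no independent check of the labels.

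**Figure D1:**
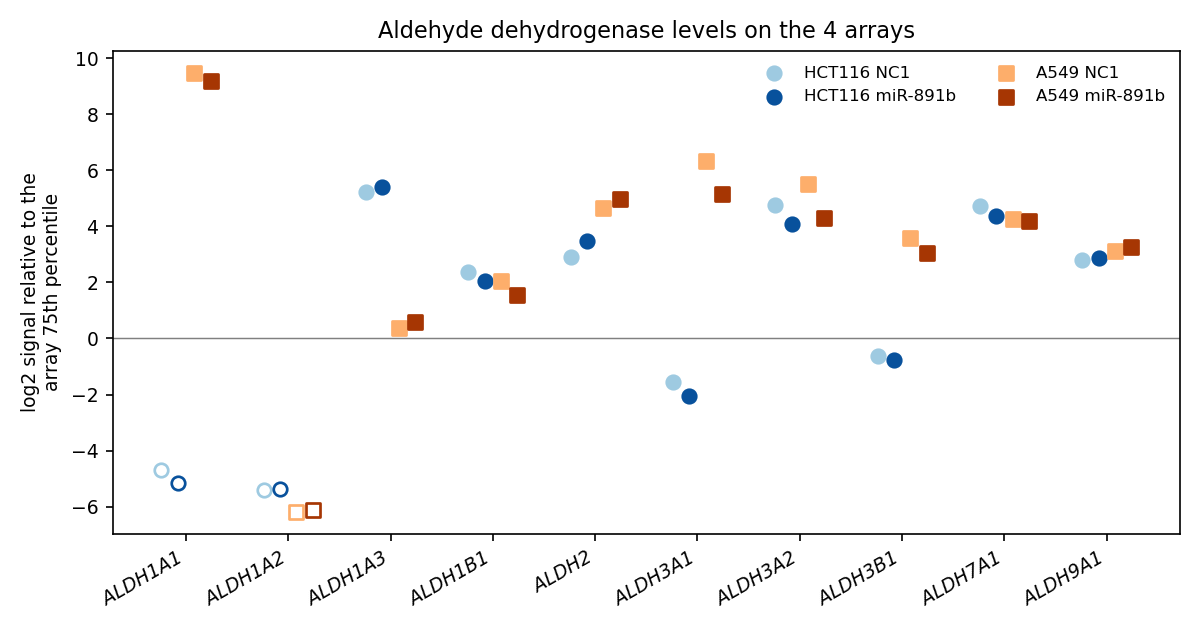
Level of each aldehyde dehydrogenase on each array (y axis, log2 signal relative to the 75th percentile of the array, probe a of each gene). Circles are HCT116 and squares A549, lighter for NC1 and darker for miR-891b, and open symbols are not well above background. ALDH1A1 sits at 9.48 and 9.18 in A549 and below background in HCT116, whereas ALDH1A3 is the higher in HCT116.

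The retinaldehyde dehydrogenases differed between the lines in opposite directions. ALDH1A1 was higher in A549 and ALDH1A3 higher in HCT116, though A549 also had ALDH1A3 well above background. ALDH1A2 was not well above background in either line. Tests of the line difference used limma on all 4 arrays with the transfection as a term, Benjamini-Hochberg adjusted over 22712 genes. The 2 arrays of a line thus serve as its replicates, and no label says whether they came from separate cultures. The p-values measure the spread that the additive model leaves, with 1 residual degree of freedom, moderated over genes. Both arrays of a line also shared a slide and a scan, so line and slide cannot be told apart. In this test 31.9% of all genes were called at an adjusted p under 0.05, with 15.5% higher in A549 and 16.4% higher in HCT116. Of the 9 members tested, 5 were called, 4 of them higher in A549 and 1 in HCT116. A gene that was not well above background in one line entered the test only through the line where it was high, so its p-value rests on background signal and is no support for the difference. Among the members this holds for ALDH1A1.

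ALDH1A1, the cytosolic retinaldehyde dehydrogenase, was read by 2 probes. Probe a gave 9.48 with NC1 and 9.18 with miR-891b in A549, and was not well above background on either HCT116 array, where its measured levels were -4.69 and -5.17. Against the lowest level well above background on the HCT116 arrays, -3.55 with NC1 and -3.14 with miR-891b, probe a was at least 6524-fold higher in A549 (limma adjusted p = 0.000753, on background signal in HCT116). Probe b (chr9:75540401-75540460, minus strand) gave 6.35 and 5.87 in A549 and -2.68 and -3.17 in HCT116, where only the NC1 array had it well above background. The measured levels of probe b differed by 525-fold, far less than the bound from probe a, so the size depends on the probe. It also depends on the normalization, with a probe a difference of 9.74 under normexp and quantile normalization against 14.26. In HCT116 both levels of probe a, and that of probe b with miR-891b, were background signal. The order of the levels is thus no further support for the difference.

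ALDH1A3, which makes retinoic acid in several epithelia, showed the reverse order. Probe a (chr15:101456503-101456562, plus strand) gave 5.22 and 5.40 in HCT116 with NC1 and miR-891b, and 0.37 and 0.59 in A549. ALDH1A3 was 28.5-fold higher in HCT116 (A549 minus HCT116 -4.83, SE 0.23, limma adjusted p = 0.00108). With normexp and quantile normalization the difference was -4.13. A further probe carries the name ALDH1A3 in the files, but its description there is an uncharacterised noncoding transcript, RP11-66B24.1. This probe (chr15:101401818-101401877, plus strand) was well above background on HCT116 miR-891b alone, at -2.50, against -4.55 on HCT116 NC1. Around its spot on that array, 13.3% of the spots that the remaining arrays showed as dim were bright, a sign of stray signal. It was not used for ALDH1A3.

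ALDH1A2, the retinaldehyde dehydrogenase of the early embryo, gave -5.40 and -5.36 in HCT116 and -6.19 and -6.13 in A549, all not well above background (chr15:58246532-58246591, minus strand). No fold is given for it.

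**Figure D2:**
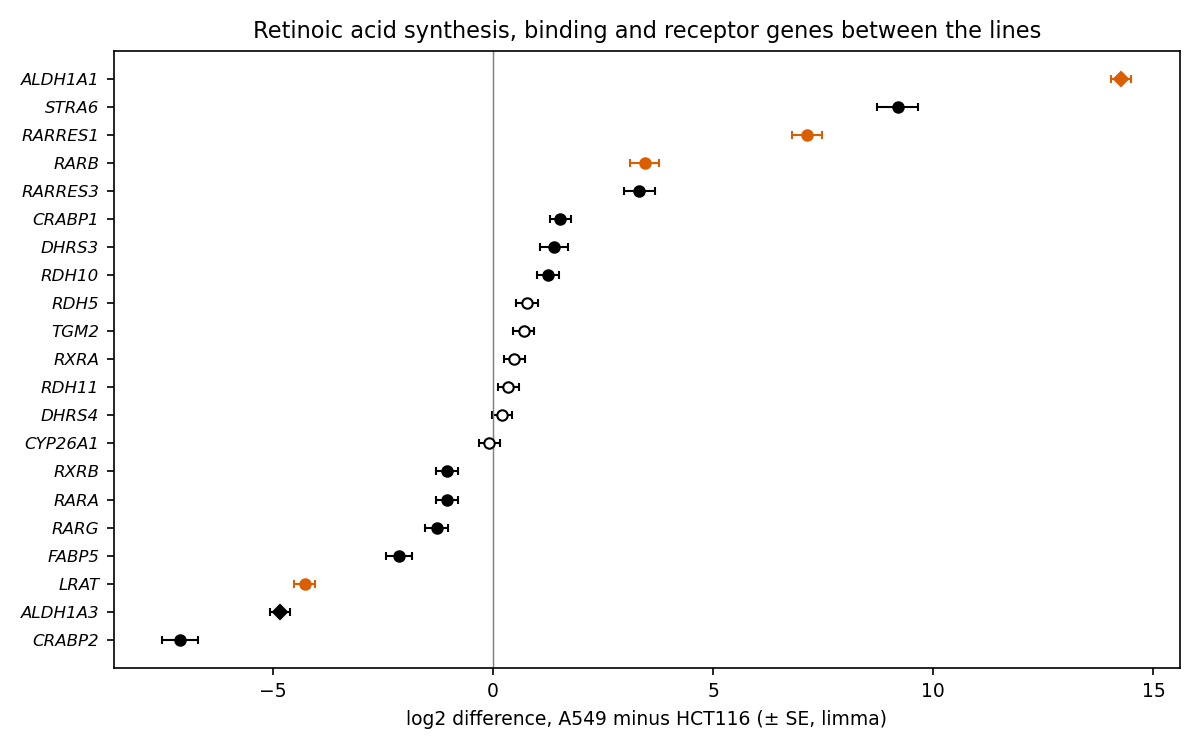
Difference between the lines (x axis, A549 minus HCT116 in log2, ± SE of limma) for ALDH1A1 and ALDH1A3 (diamonds) and the 19 tested genes of the retinoid pathway (circles). Filled symbols have an adjusted p under 0.05, and orange marks genes not well above background on either array of one line, whose difference includes background signal. That of STRA6, drawn in black, also includes it, from HCT116 miR-891b. Called genes lie on both sides of 0, from CRABP2 at -7.11 to ALDH1A1 at 14.26.

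Other genes of the retinoid pathway also differed widely between the lines and in both directions. Of 23 genes, 19 were tested, 7 were called higher in A549 and 6 higher in HCT116. Their median A549 minus HCT116 difference was 0.48, against -0.07 over all genes. STRA6, the membrane receptor that takes up retinol, was higher in A549 by 9.19 (SE 0.46, limma adjusted p = 0.00117), with levels of 5.36 and 5.91 there. In HCT116 it was well above background on 1 of 2 arrays, at -3.02 with NC1. Its level of -4.09 with miR-891b was background signal, which its difference, SE and p-value include. CRABP2, which carries retinoic acid to its receptors, was lower in A549 (-7.11, SE 0.40), with levels of 5.36 and 4.43 in HCT116 and -2.42 and -2.00 in A549. RARRES3, a retinoid-induced gene, was higher in A549 (3.33, SE 0.34). LRAT, which stores retinol as esters, was not well above background in A549 and at least 4.48-fold higher in HCT116. The receptor gene RARB and the retinoid-induced gene RARRES1 were not well above background in HCT116, and were at least 4.04-fold and 36.2-fold higher in A549. The limma adjusted p was 0.00144 for CRABP2 and 0.00557 for RARRES3. For LRAT, RARB and RARRES1, which entered the test through 1 line, only the bounds are given, although the counts include them.

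The enzymes that clear lipid and other reactive aldehydes also differed between the lines. ALDH3A1, an enzyme for aldehydes of lipid peroxidation that is abundant in the cornea, was read by 2 probes. Probe a (chr17:19641655-19641714, minus strand) gave 6.33 with NC1 and 5.16 with miR-891b in A549, and -1.56 and -2.04 in HCT116. ALDH3A1 was 187-fold higher in A549 (7.55, SE 0.29, limma adjusted p = 0.000858), and with normexp and quantile normalization the difference was 5.51. Probe b gave 5.38 and 4.28 in A549 and was not well above background on the HCT116 arrays, a difference of at least 288-fold. Stray signal around the spots reached 18.7% for probe a on A549 miR-891b and 20.3% for probe b on HCT116 miR-891b. Outside areas of stray signal neither probe was left, so the line difference of ALDH3A1 could not be tested there.

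ALDH3B1, a membrane-bound enzyme for fatty aldehydes, was well above background on all arrays with each of its 3 probes. Probe a (chr11:67795665-67795724, plus strand) gave 3.57 and 3.06 in A549 and -0.63 and -0.77 in HCT116. The line difference was 4.02 (SE 0.25, limma adjusted p = 0.00168), or 16.2-fold, and with normexp and quantile normalization it was 2.95. Probe c gave 7.79-fold and probe b (chr11:67786661-67786720, plus strand) 5.07-fold, so the probes agreed in direction while the size varied.

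ALDH2, the mitochondrial enzyme that oxidises acetaldehyde, was also higher in A549 (chr12:112247448-112247507, plus strand). Its levels were 4.67 and 4.96 in A549 and 2.90 and 3.47 in HCT116. The difference was 1.63 (SE 0.24, limma adjusted p = 0.0138), or 3.10-fold. Of the 5 members called, ALDH2 was the one lost when an array was left out, with adjusted p = 0.0930 without HCT116 NC1. Fits on 3 arrays have no transfection term, and the line with 1 array is assumed to vary like the other. The same model on all 4 arrays gave ALDH2 an adjusted p of 0.0153. Over all its alternatives the adjusted p ranged from 0.00724 to 0.0930.

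The remaining 4 members did not pass the test of the line difference. ALDH3A2, a membrane enzyme of the endoplasmic reticulum that oxidises long-chain fatty aldehydes, had levels of 4.75 and 4.07 in HCT116 and 5.52 and 4.31 in A549 with probe a, and its lines overlapped (difference 0.50, SE 0.26, adjusted p = 0.214). Its probe b gave 3.51 and 2.88 in HCT116 and 5.19 and 3.81 in A549. That is 2.46-fold higher in A549 and was not tested. ALDH1B1, a mitochondrial relative of ALDH2, had 2.39 and 2.06 in HCT116 and 2.06 and 1.55 in A549 (-0.42, SE 0.23, adjusted p = 0.236; chr9:38397700-38397759, plus strand). ALDH7A1, the enzyme of lysine breakdown, had 4.71 and 4.38 against 4.27 and 4.19 (-0.31, SE 0.24, adjusted p = 0.360; chr5:125880700-125882063, minus strand, across an exon junction). ALDH9A1, which acts in carnitine synthesis, had 2.79 and 2.86 against 3.14 and 3.27 (0.38, SE 0.23, adjusted p = 0.270; chr1:165631976-165632035, minus strand). These are limma values with an SE near 0.25, so differences of the size of that of ALDH3A2 or smaller were not resolved.

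Of 9 other aldehyde dehydrogenases listed, 7 were tested and 1 was called, ALDH8A1, which was well above background in HCT116 and not in A549, at least 1.98-fold higher, and entered the test through HCT116 alone. The other aldehyde-clearing enzymes were called higher in A549 for 6 of 8 tested and higher in HCT116 for 0. Their median difference was 3.11. These were AKR1B10 (9.84, SE 1.16), AKR1B1 (5.70, SE 0.24), GSTA4 (3.73, SE 0.35), PTGR1 (2.49, SE 0.24), CBR3 (1.46, SE 0.24) and CBR1, which HCT116 did not show well above background and which was at least 293-fold higher in A549. AKR1B10 is also on the list of A549 markers, and earlier results of these data were known when both lists were drawn up. The count is thus no independent evidence.

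Alcohol dehydrogenases make some of the aldehydes that aldehyde dehydrogenases oxidise. Of 7, 4 were tested and 3 were called, with ADH1C at least 15.3-fold, ADH6 at least 2.76-fold and ADH1A at least 1.97-fold higher in A549, all of them tested through A549 alone. ADH1C differed by 1.24 with miR-891b in A549, from -0.03 to 1.21. ADH5, which is expressed in most tissues, was measured in both lines with a difference of -0.50 (limma adjusted p = 0.191).

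ALDH3A1 belongs to the genes known to be induced through the aryl hydrocarbon receptor, AHR, and the genes of that battery went both ways. Of 9 tested, 3 were called higher in A549 and 3 higher in HCT116. CYP1B1 (4.37, SE 0.24), UGT1A6 (4.55, SE 0.24) and NQO1 (2.17, SE 0.25) were higher in A549, with UGT1A6 not well above background on HCT116 NC1. AHRR (-3.45, SE 0.64) and TIPARP (-1.26, SE 0.25) were lower in A549, with 14.6% of the dim surroundings of TIPARP bright on HCT116 miR-891b, and CYP1A1 was not well above background there and at least 6.42-fold higher in HCT116. AHRR was not well above background on A549 NC1, so its difference and that of UGT1A6 include background signal. AHR itself differed by 0.17 (limma adjusted p = 0.602), with 16.6% of its dim surroundings bright on HCT116 miR-891b.

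RefSeq promoters (GRCh38.p14, from 250 bases before to 50 after a start) were found for 8 of the 10 members, 11 sequences in all, with no entry for ALDH2 and ALDH3A1. The antioxidant response element core TGACNNNGC was in 0 of them on either strand, and in 13.3% of the 35116 promoters of that length. The AHR core GCGTG was in 3 of them, 1 each for ALDH1A2, ALDH1A3 and ALDH3A2, and in 36.5% of all promoters. These are matches of letters in a short window only.

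The next comparison asked what miR-891b did to these genes within each line. The largest differences were those of ALDH3A2 and ALDH3A1 in A549, both lower with miR-891b by more than 2-fold. In HCT116, 0 of 8 measured members were past 2-fold, where 0.843% of 19105 genes were at least 2-fold lower and 1.16% at least 2-fold higher. In A549, 2 of 9 measured members were past 2-fold, where 9.57% of 21335 genes were. Both were lower with miR-891b, as were 5.57% of genes. The median change of the members was -0.23 in HCT116 and -0.30 in A549, against -0.04 and -0.06 over all measured genes. With 1 array per group none of these differences has a replicate check, and calls are by size alone.

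**Figure D3:**
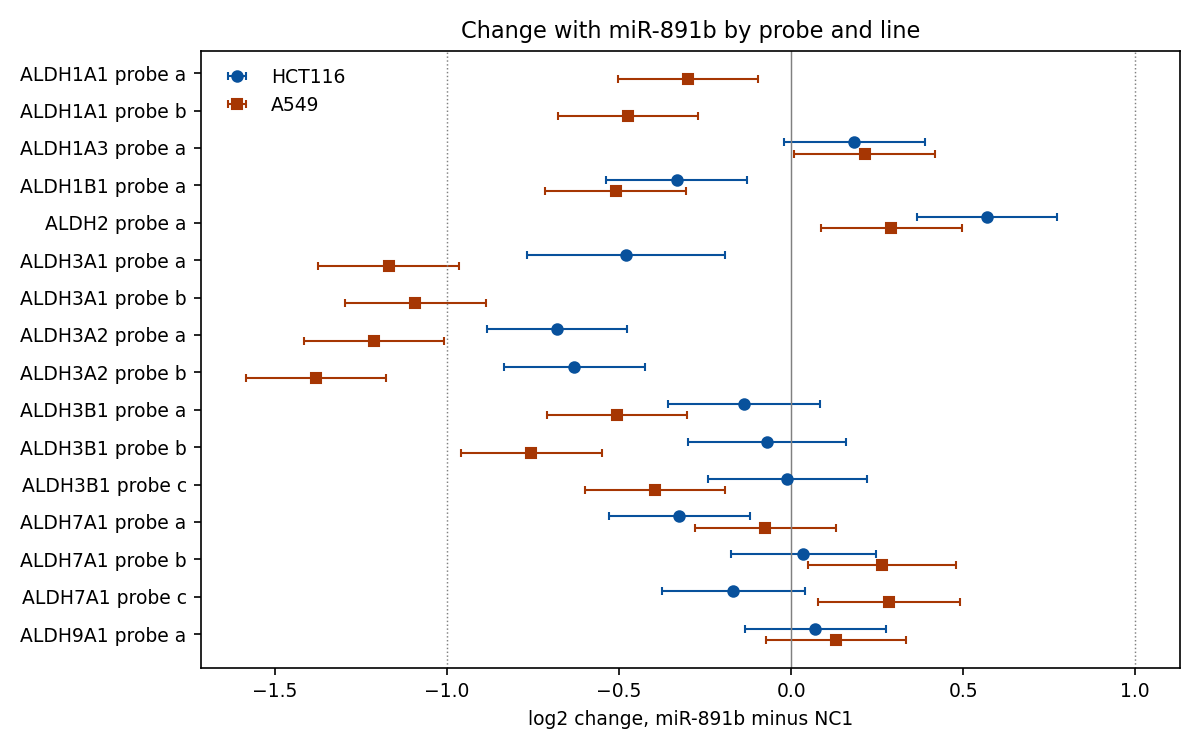
Change with miR-891b (x axis, log2, miR-891b minus NC1) for each probe well above background on both A549 arrays. Blue circles are HCT116 and brown squares A549, bars are the scanner software's error and not a replicate error, and dotted lines mark 2-fold. The plotted ALDH3A1 and ALDH3A2 probes in A549 lie between -1.09 and -1.38, beyond the 2-fold line.

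ALDH3A2 was lower with miR-891b in both lines and on both probes. Probe a went from 5.52 to 4.31 in A549, a change of -1.21 or 2.32-fold, and from 4.75 to 4.07 in HCT116, a change of -0.68. Probe b (chr17:19580832-19580891, plus strand), which the array design assigns to transcript variant 1 whereas probe a is assigned to variant 2, went from 5.19 to 3.81 in A549 (-1.38) and from 3.51 to 2.88 in HCT116 (-0.63). All 4 differences exceeded the scanner error of 0.20. On HCT116 miR-891b, 14.5% of the dim surroundings of the probe b spot were bright, against 6.98% for probe a. In A549, 3.37% of measured genes had a lower change than ALDH3A2, and in HCT116 3.70%.

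ALDH3A1 was lower with miR-891b in A549 on both probes. Probe a differed by -1.17 (2.25-fold) and probe b by -1.09 (2.13-fold). In HCT116 probe a went from -1.56 to -2.04 (-0.48, scanner error 0.29), and probe b was not well above background. On A549 miR-891b, 18.7% of the dim surroundings of the probe a spot were bright, against 6.29% for probe b, whose difference was close to that of probe a. On HCT116 miR-891b the share was 20.3% for probe b. With quantile normalization the ALDH3A1 change in A549 was -0.94, and with normexp and quantile normalization that of ALDH3A2 was -0.97, each short of 2-fold.

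ALDH3A2 and ALDH3A1 are neighbours on chromosome 17. Their nearest probes lie 60.8 kb apart on hg19, with 1 RefSeq protein-coding gene between them. In the line comparison they differed, with ALDH3A1 called and ALDH3A2 not.

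ALDH3B1, the other gene of the ALDH3 family among the members, differed by -0.51 with probe a, -0.76 with probe b and -0.39 with probe c in A549. In HCT116 the 3 probes differed by -0.14, -0.07 and -0.01, all within the scanner error.

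Among the ALDH1 enzymes and their mitochondrial relatives the changes were small and of both signs. ALDH1A1 differed by -0.30 with probe a and -0.47 with probe b in A549, but probe a was at 0.11 with normexp and quantile normalization and 0.10 with quantile normalization alone, so its direction is not settled. ALDH1A3 differed by 0.18 in HCT116 and 0.21 in A549, close to the scanner error. ALDH1B1 differed by -0.33 and -0.51, and ALDH2 by 0.57 and 0.29. ALDH2 was the member with the highest change in either line, and 95.8% of measured genes had a lower change in HCT116.

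ALDH7A1 was somewhat lower with miR-891b in HCT116 with probe a, and ALDH9A1 differed by less than the scanner error. ALDH7A1 differed by -0.32 in HCT116 and -0.07 in A549 with probe a. Its other probes gave 0.03 and 0.26 (probe b, chr5:125877562-125877621) and -0.17 and 0.29 (probe c, chr5:125879018-125879077), so the sign depended on the probe. In A549 probe a was at 0.098 with normexp and quantile normalization and 0.084 with quantile normalization alone. ALDH9A1 differed by 0.07 and 0.13.

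**Figure D4:**
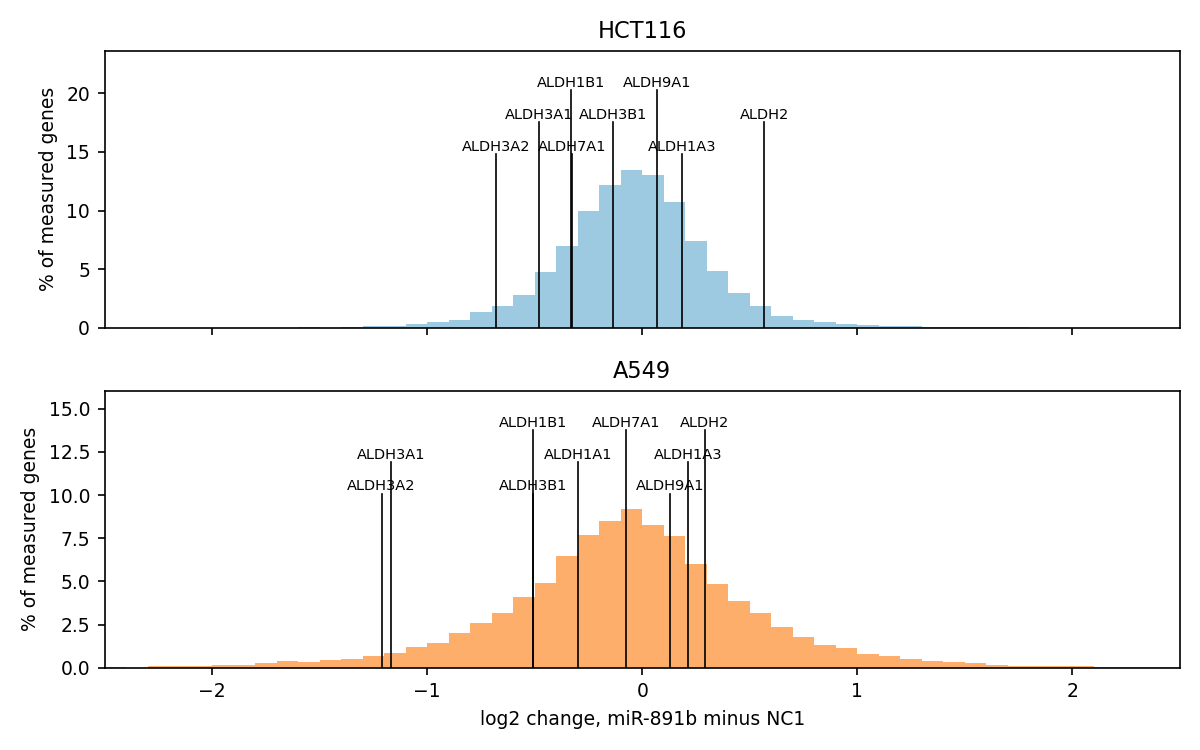
Distribution of the change with miR-891b over all genes measured in HCT116 (upper) and A549 (lower), as the percent of genes (y axis) in bins of 0.1 log2 (x axis, miR-891b minus NC1, shown from -2.5 to 2.5). Black lines mark the aldehyde dehydrogenases, at -0.68 (ALDH3A2) to 0.57 (ALDH2) in HCT116 and at -1.21 (ALDH3A2) to 0.29 (ALDH2) in A549.

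Taking the lines as the only replicates of the transfection, the limma model with the line as a term called 0 of 22712 genes, so 0% of all genes and 0 of 9 members. At an unadjusted p under 0.05 it had 1214 genes. ALDH3A2 had a mean change of -0.95 (SE 0.26, lower in 2 of 2 lines) and ALDH3A1 of -0.82 (SE 0.29, lower in 2 of 2 lines), both with a limma adjusted p = 0.793. For the other 7 members the adjusted p of this limma test ran from 0.793 to 0.939. They include ALDH1A1, whose mean change rests in HCT116 on background signal.

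Of the other aldehyde dehydrogenases, 0 of 7 measured in HCT116 and 0 of 6 in A549 were past 2-fold, with medians of -0.27 and -0.26. The other aldehyde-clearing enzymes had medians of 0.03 and 0.02, with AKR1B10 past 2-fold in HCT116 (4.47). In the AHR battery 0 of 8 and 0 of 7 measured genes were past 2-fold, with medians of -0.15 and -0.16.

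Markers of other cells were looked at because the culture protocol also mentions fibroblasts. Of 6 fibroblast markers, 2 were well above background on each HCT116 array and 4 on each A549 array. COL3A1 and DCN were not well above background on any array. The summed processed signal of the 6 was 123 to 144 in HCT116. In A549 it was 317 with NC1 and 781 with miR-891b, and LUM was the only measured marker that was higher. LUM differed by 2.14, from 1.03 to 3.17, while COL1A1 differed by -0.59, THY1 by -1.04 and PDGFRB by -0.04. The median change of these 4 markers was -0.31. Of 3 leukocyte markers, PTPRC was well above background on all arrays, CD3E on none, and CD68 was not found under that name. Whether these signals have a part in the A549 changes above was not tested.

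By distance over the 4 levels, each gene centred on its own mean, the genes most like ALDH3A1 among the 18063 that every array showed well above background were AMIGO2 (distance 0.78), SLC16A4 (0.97) and COL4A2 (1.05). Those most like ALDH3A2 were lnc-CACNB3-1 (0.08), LOC100506125 (0.14) and TMEM92 (0.15). Around their spots, stray signal reached 17.6% for AMIGO2, 10.4% for lnc-CACNB3-1 and 12.5% for TMEM92. TMEM92 differed by -0.75 in HCT116 and -1.22 in A549. With 4 arrays such likeness is a description only.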

How the data were processed

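Total RNA (100 ng per array, Cy3, 1-colour Agilent arrays, per the labels) was measured once in each of 4 groups, taken from the sample titles. Per the file headers, the deposited scanner files hold intensity values from Feature Extraction 11.5.1.1, background-subtracted and detrended within an array and not scaled between arrays, with probe positions on hg19. How the authors made the log2 values of their deposited value table is not given in the sources used here. They equalled the levels used here within a median of 0.0069 per array and were used as an alternative.

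Outlier-marked spots were dropped. Levels are the mean log2 processed signal of a probe minus the array's own 75th percentile over gene probes. A gene took its probe with the highest mean (probe a). A gene was measured in a line when well above background on both arrays, and entered limma 3.58.1 (R 4.3.3) when so on at least 2 of 4. Changes were called at 2-fold. A spot was in an area of stray signal where at least 10% of its dim surroundings (spots up to 10 rows and columns away, not well above background elsewhere) were bright on that array. Other steps used Python 3.11.15. The limma step was also run on simulated independent arrays, which cannot show effects of the slide or of shared cultures.

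The members, lists, markers and named-gene rules were chosen with earlier results of these data known. In the retinoid list 1 gene is not reported here, and the counts leave it out. From each list the genes past 2-fold in a line and the 6 largest called line differences were named, with the 3 nearest genes for 2 members. ADH5, AHR, the fibroblast markers with a change given and the genes that went against their marker list were named after their values were seen. Bounds ("at least") take the mean of the line measured against the lowest level well above background, or the gene's own if higher, on the arrays of the other line. Alternatives were other normalizations, the authors' values, no filter, the mean over probes, exclusion of stray areas, other thresholds, other array subsets and a model without the transfection.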

Additional observations from a re-analysis of the deposited data

Results flagged for a closer look

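AKR1B10, an aldo-keto reductase of the aldehyde-clearing list, went from -2.29 to 2.18 in HCT116 with miR-891b and from 9.88 to 9.69 in A549, where the difference of -0.19 is within the usual scanner error, so its A549 change minus its HCT116 change was -4.66. On HCT116 miR-891b, 3.66% of its dim surroundings were bright. This difference was not tested, since each line has 1 array per group. Outside the gene probes, HCT116 miR-891b had 11 of 308 negative control spots above background and A549 miR-891b 2 of 308, against 0 on either NC1 array.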

How the results depend on the processing

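Across the 7 other normalizations, value sources and filters, ALDH1A1, ALDH1A3, ALDH2 and ALDH3B1 kept the direction and call of their line difference, as did ALDH3A1 where it could be tested. Outside areas of stray signal no ALDH3A1 probe was left, and 4 members were called. Leaving out an array, in a model without the transfection term, gave 2848 to 8418 called genes and 4 to 5 called members, against 7574 and 5 for that model on all 4 arrays. The lowest count was without HCT116 NC1, and without HCT116 miR-891b it was 3067. ALDH3A2, not called, had a line difference of -0.10 without A549 NC1, opposite in sign to the full fit, and of 1.11 without A549 miR-891b. ALDH2 was not called without HCT116 NC1. The number of A549 members past 2-fold was 1 with normexp and quantile normalization, 1 with quantile normalization, 1 outside stray areas and 0 at 3-fold, and at 1.5-fold HCT116 had 1. The median change of the members in HCT116 was -0.12 with normexp and quantile normalization, -0.11 with the mean over probes and -0.14 outside stray areas. In A549 it was 0.10, -0.39 and -0.19 under the same settings, 0.084 with quantile normalization and -0.19 without the filter, so its sign was not stable. Without the filter, 6 genes were called for the transfection over both lines and 0 were members. ALDH3A2 changed by -1.30 to -0.97 in A549 and ALDH3A1 by -1.17 to -0.94 over the settings that gave a value. The causes of these shifts were not tested. Among genes past 2-fold in HCT116, 57.9% were higher, against 72.7% with normexp and quantile normalization, 187 lower and 187 higher with quantile normalization, 64.3% with median scaling and 49.3% outside stray areas. Without the filter the counts past 2-fold were 1434 lower and 2788 higher in HCT116, and 3080 and 2933 in A549, against 161 and 221, and 1188 and 854. The labels pair no samples by number, and the transfection comparison over both lines already sets miR-891b against NC1 within each line.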
